A study of Mus musculus with 7 samples.

Results

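The nuclear genes of the respiratory chain and of ATP synthase were followed in mouse embryonic stem cells during treatment with retinoic acid. Genes were taken by symbol: all Nduf genes, Sdha to Sdhd, the Uqcr genes, the Cox4 to Cox8 genes and the Atp5 genes, with the transcript of highest mean where a symbol had several. This gave 84 of 12071 gene symbols, or 92 of 15296 transcripts, made up of 36 genes of complex I, 4 of complex II, 7 of complex III, 14 of complex IV, 15 of complex V and 8 that are assembly factors or only share a name with a complex. Cyc1 and Cycs, which the symbols do not catch, are given with the other pathway genes, and subunits encoded in mitochondrial DNA were not analysed here.

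The cells were CCE, an established line of mouse embryonic stem cells that needs no feeder layer. The day 0 culture received leukemia inhibitory factor (LIF), which keeps such cells undifferentiated, and the solvent DMSO. The cultures of days 1 to 6 received 5 µM retinoic acid and no LIF, so retinoic acid, LIF removal and time in culture cannot be told apart. Each day had 1 RNA sequencing library of total RNA depleted of ribosomal RNA. All libraries come from 1 line, and with no replicate only a trend over days could be tested.

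The respiratory chain passes electrons from NADH (complex I) and succinate (complex II) through coenzyme Q to complex III, then through cytochrome c to complex IV, which reduces oxygen. Complexes I, III and IV pump protons across the inner mitochondrial membrane, and ATP synthase (complex V) uses their return to make ATP. Embryonic stem cells are known for a strong use of glycolysis, and differentiation is often accompanied by a shift towards oxidative metabolism.

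The deposited values are log2 normalized reads per transcript, with 1 scaling factor per library and no division by length, and are called levels here. Total reads recovered per library ran from 7194325 on day 6 to 17923852 on day 4. Of the 84 genes, 77 passed the filter on low values, a mean log2 level over all 7 libraries above 8.40 (the 40th percentile). Atp5s, Cox6b2, Ndufa4l2 and Ndufaf1 to Ndufaf4 did not pass. The filter mean includes day 6, and over days 0 to 5 alone the means of Ndufa5 (8.33), Ndufs5 (8.27) and Cox7b2 (8.18) lay below 8.40. The 84 transcripts are short, with a median length of 690.5 nt (range 296 to 4938 nt) against 3043.5 nt over the 7242 genes kept. Length therefore stands beside the main counts and the calls of respiratory genes, as the value after a straight line on log2 length was taken out of each library (length correction). Embryonic stem cell markers lost level over the course: 4 of the 5 kept fell, also with any of days 0 to 5 left out, and the log2 of the summed level of all 8 was 16.29 on day 0 and 11.11 on day 5. Of the extraembryonic endoderm markers 6 of 7 kept rose (log2 sum 13.80 to 17.67), as did 7 of 7 smooth muscle and fibroblast markers (9.28 to 15.04); without day 0, 4 of each list rose. None of the 5 cardiac and skeletal muscle markers in the table passed the filter, and their log2 sum lay between 8.76 and 10.26 over days 0 to 5. Reads were recovered with the lowest value of each library set to 1 read, so 0 reads could not be told from 1. Nanog stood at this lowest value on day 6. The part of these changes in cell type in the results below was not tested, and in bulk RNA a smaller number of cells of a type and less RNA per cell cannot be told apart.

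Most respiratory genes stood a little lower than on day 0 from day 2 on, with little further change after day 3. The median difference from day 0 over the 77 genes on days 1 to 5 was −0.13, −0.37, −0.43, −0.37 and −0.37 log2 units in turn, while the median over all genes kept stayed between −0.021 and 0.086. The step from day 1 to day 2 was the widest, with a median of −0.24 and 68 of 77 genes lower. Over all genes kept the median of that step was −0.032, with 52.5% lower. The step from day 4 to day 5 was 0.033, with 30 of 77 lower (50.5% of all genes kept). These daily differences are not corrected for length. Of all 84 genes, 58 had their highest value of days 0 to 5 on day 0, and 67 stood lower on day 5 than on day 0. Over all genes kept 48.7% were lower on day 5, and the share with the highest value on day 0 was not taken.

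**Figure D1:**
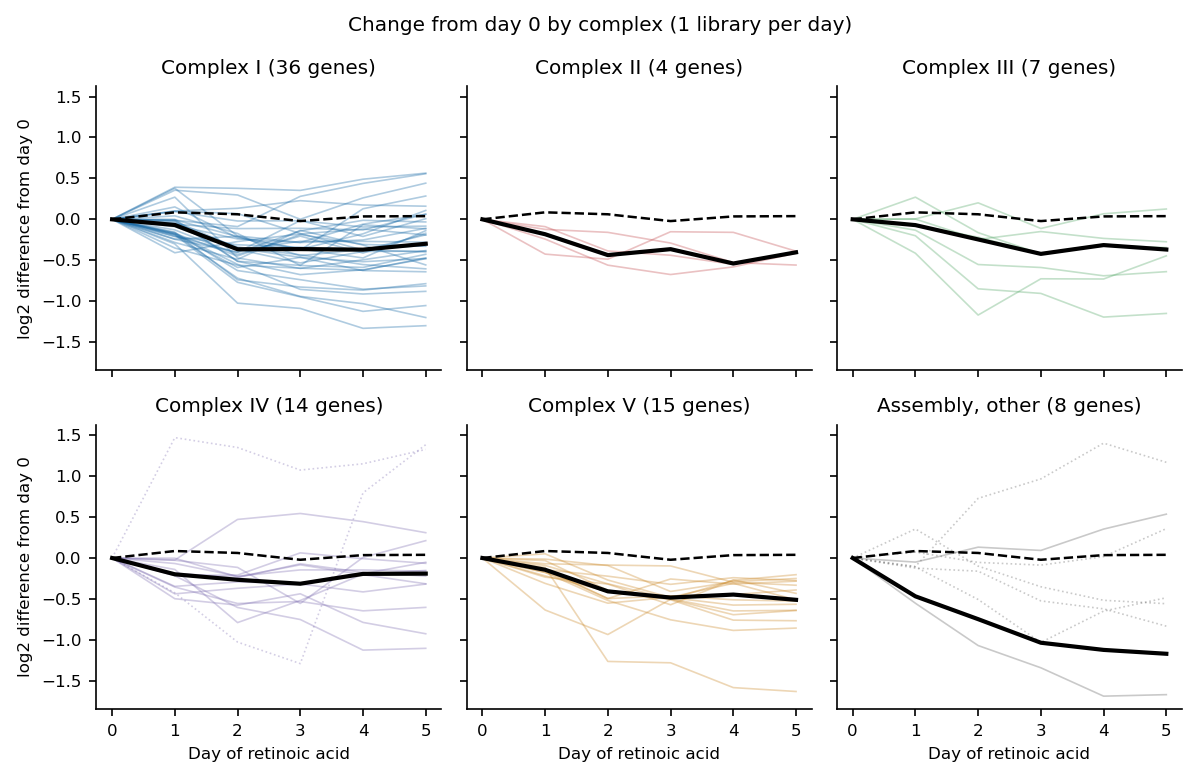
Log2 difference of each gene from its own day 0 level (y axis) on days 0 to 5 of retinoic acid (x axis), by complex. Thin solid lines are genes kept by the filter, dotted lines genes that were not, the thick black line is the median of the genes kept in that group and the dashed line the median of all genes kept. In complexes I to V the median lies below 0 on each of days 1 to 5, and Cox6b2 and Ndufa4l2 are the dotted lines that end above 1 in complex IV.

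Each gene's levels of days 0 to 5 were fitted with a line against day, and a gene is said to rise or fall where limma's test, with Benjamini-Hochberg adjustment over the 7242 genes, gave an adjusted p under 0.05 (6 libraries, 4 residual degrees of freedom). A slope is given in log2 units per day, followed by its standard error (SE). Of the 77 respiratory genes 23 fell (29.9%), where 26.8% of all genes kept fell, so the share of falling genes was close to the background. Only 2 of the 77 rose (2.60%), where 25.7% of all genes kept rose. The median slope was −0.072 log2 units per day, against −0.0012 over all genes kept, and 62 of 77 slopes were negative (38 of 77 after length correction), where 50.2% of all slopes were. The slopes spanned −0.36 to 0.13, a narrow band within the −1.43 to 2.04 of all genes kept, and the median range of a gene over days 0 to 5 was 0.57 log2 units against 0.92. On day 5, 8 of 77 were at least 2-fold below day 0 (14.1% of all genes kept) and 0 were at least 2-fold above it (20.9%).

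Much of this direction was not kept after length correction. After length correction 14 of the 77 fell (31.7% of all genes kept) and 11 rose (21.3%), and the median slope was 0.0022. All 14 of these falling genes were among the 23 above, and both rising genes remained. The 9 falling genes that lost their call were Atp5e, Atp5g3, Atp5o, Cox7b, Ndufa7, Ndufa9, Ndufb8, Ndufs7 and Uqcr, with adjusted p between 0.0595 and 0.692. Within the 77 genes Spearman's rho of slope against length was −0.26, and over all genes kept it was 0.23, so the 2 relations had opposite signs. Whether lines fitted over all genes suit these short transcripts was not tested. Both values of rho are descriptions across genes that share the same 6 libraries. For genes that fell or rose, the sentences that follow give the deposited slope first and then the call after length correction.

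**Figure D2:**
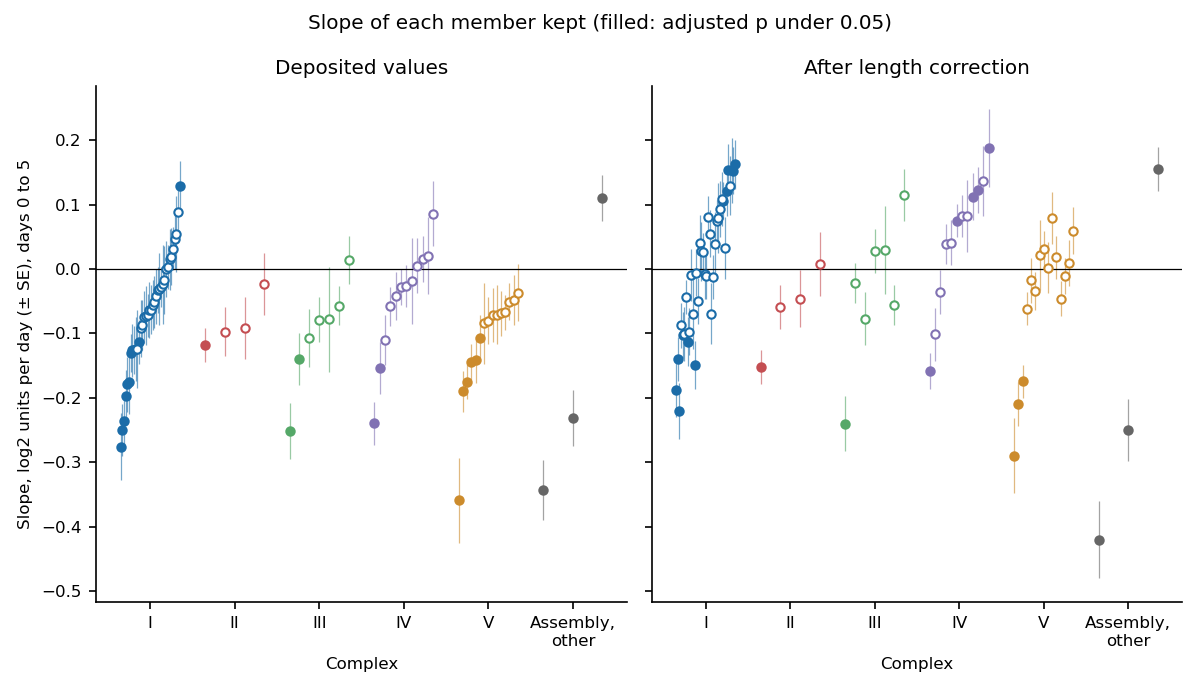
Slope of each gene over days 0 to 5 in log2 units per day (y axis, point ± SE) by complex (x axis), for the deposited values (left) and after length correction (right), with genes in the same order in both. Filled points passed an adjusted p under 0.05. On the left 23 filled points lie below 0 and 2 above; on the right 14 lie below and 11 above.

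Complex I, the NADH dehydrogenase, had 10 of 36 genes falling and 1 rising, with a median slope of −0.064. After length correction 6 fell and 6 rose and the median was 0.011. The genes divide into 7 core subunits, which carry the flavin and the iron-sulfur clusters, and 29 accessory subunits around them. Of the core subunits 4 of 7 fell and all 7 slopes were negative (median −0.12), also after length correction, when 3 fell (median −0.10). Of the accessory subunits 6 of 29 fell and 1 rose (median −0.051), and after length correction 3 fell and 6 rose (median 0.039). The core transcripts are longer (median 1480 nt) than the accessory ones (median 563 nt), and the difference between core and accessory subunits was not tested.

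Ndufv1, the core subunit that binds NADH and flavin, had levels of 11.38, 11.19, 10.61, 10.44, 10.26 and 10.33 on days 0 to 5. It lost most between day 1 and day 2 and was lowest on day 4. Its slope was −0.24 ± 0.045 (SE, adjusted p = 0.00707 by limma), with a day 5 level 2.08-fold below day 0, and it also fell after length correction (adjusted p = 0.00801). Its transcript of 1582 nt lies on chromosome 19, 4007504 to 4012725, minus strand (mm9). Ndufs1, the largest core subunit and holder of several iron-sulfur clusters, had levels of 11.24, 11.22, 10.89, 10.78, 10.73 and 10.77 and fell by 0.11 ± 0.034 per day (SE, limma adjusted p = 0.0302; 0.0163 after length correction). Days 0 and 1 were alike, and days 2 to 5 lay below both. Its call was lost without day 0 (adjusted p = 0.126), day 1 (0.0749), day 3 (0.0527) or day 4 (0.101).

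Ndufs7, which holds the last iron-sulfur cluster before the quinone, had levels of 10.47, 10.30, 9.73, 9.64, 9.60 and 9.68 and fell by 0.18 ± 0.050 (SE, limma adjusted p = 0.0258). Its call was lost after length correction (adjusted p = 0.0827) and without day 0 (0.147), day 1 (0.0683) or day 4 (0.0781). The slopes of the core subunits Ndufs3 (−0.064 ± 0.044), Ndufs8 (−0.12 ± 0.061) and Ndufv2 (−0.032 ± 0.036) did not pass the test (limma adjusted p = 0.25, 0.126 and 0.465). Ndufs8 was highest on day 1 (9.88) rather than on day 0 (9.61).

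Among the accessory subunits the steepest fall was that of Ndufb10, a subunit of the membrane arm, with levels of 10.87, 10.57, 9.85, 9.79, 9.54 and 9.58. Each of days 2 to 5 lay at least 0.72 below day 1. Its slope was −0.28 ± 0.052 (SE, limma adjusted p = 0.00684) and its day 5 difference from day 0 was −1.30 (95% counting interval −1.45 to −1.15), where the interval is an exact binomial one on reads and covers counting error only. Ndufs6, a zinc-binding subunit of the peripheral arm, declined on every day, with levels of 9.87, 9.68, 9.15, 8.93, 8.84 and 8.67, and fell by 0.25 ± 0.041 per day (SE, limma adjusted p = 0.00444). After length correction both genes still fell (adjusted p = 0.0117 for Ndufb10 and 0.0153 for Ndufs6). Ndufb10 lies on chromosome 17, 24859011 to 24861333, minus strand, and Ndufs6 on chromosome 13, 73457323 to 73465903, minus strand (mm9). Ndufa7, Ndufa8, Ndufa9 and Ndufb8 were the other accessory subunits that fell, by 0.13 to 0.20 per day, and of these only Ndufa8 also fell after length correction (adjusted p = 0.0479). Without day 0 the adjusted p of these 4 ran from 0.0566 for Ndufa7 to 0.169 for Ndufa9, and Ndufa9 was also lost without day 1 (0.0704), day 3 (0.0522), day 4 (0.0905) or day 5 (0.0513). Without day 4 the adjusted p was 0.0551 for Ndufa8 and 0.0540 for Ndufb8.

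Ndufa13, also known as a cell death regulator under the name GRIM-19, was the complex I gene that rose. Its levels were 9.81, 9.80, 9.72, 10.09, 10.25 and 10.36, flat to day 2 and higher on each of days 3 to 5. The slope was 0.13 ± 0.039 (SE, limma adjusted p = 0.0304) and day 5 stood 1.47-fold above day 0. The call held after length correction (adjusted p = 0.0129) but not after median-centring (0.0934), quantile normalization (0.0937) or without day 1 (0.0679), day 3 (0.0550), day 4 (0.0991) or day 5 (0.128). Ndufb11, a short membrane-arm subunit, went from 9.71 on day 0 to 10.10 on day 1 and 10.27 on day 5, a slope of 0.088 ± 0.037 (SE) that did not pass the test (limma adjusted p = 0.0827). After length correction Ndufa2, Ndufa6, Ndufb6, Ndufb11 and Ndufc1 rose besides Ndufa13, with slopes of 0.11 to 0.15.

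Complex II, succinate dehydrogenase, is encoded by 4 nuclear genes, and all 4 slopes were negative (median −0.094, and −0.052 after length correction). Sdha, the flavoprotein that oxidizes succinate, had levels of 12.52, 12.40, 12.36, 12.23, 11.99 and 11.96 and was lower on each day than on the day before. Its slope was −0.12 ± 0.027 (SE, limma adjusted p = 0.0118), and after length correction it fell too (adjusted p = 0.00543). The call was lost without day 0 (adjusted p = 0.0550), without day 4 (0.0556) and after quantile normalization (0.0518). Sdhb, the iron-sulfur subunit, had levels of 10.74, 10.50, 10.18, 10.07, 10.16 and 10.33, with its lowest value on day 3 (slope −0.092 ± 0.048, limma adjusted p = 0.150). The membrane anchors Sdhc (10.58, 10.49, 10.19, 10.14, 10.03 and 10.19) and Sdhd (11.09, 10.66, 10.60, 10.93, 10.93 and 10.70) had slopes of −0.097 ± 0.038 and −0.023 ± 0.048 (limma adjusted p = 0.0691 and 0.699). Sdhc fell when day 5 was left out (adjusted p = 0.0421), after median-centring (0.0345) and after quantile normalization (0.0402), and Sdhd was near its day 0 level on days 3 and 4. So 1 of the 4 genes passed the test, and differences between the 4 slopes were not tested.

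Complex III, the cytochrome c reductase, had 2 of 7 genes falling and 0 rising by limma (0 rising also at an unadjusted p under 0.05), with a median slope of −0.078 and of −0.021 after length correction. Uqcrc1, a large core protein of the matrix side, had levels of 12.89, 12.69, 12.04, 11.98, 11.69 and 11.74. Days 2 to 5 all lay below days 0 and 1. It fell by 0.25 ± 0.043 per day (SE, limma adjusted p = 0.00523; 0.00580 after length correction) and reached 2.22-fold below day 0. Uqcrc2, its partner in the complex, had levels of 11.09, 11.09, 10.85, 10.94, 10.86 and 10.82 and a slope of −0.057 ± 0.031 (SE, limma adjusted p = 0.158). The difference between the slopes of these core partners was not tested. Uqcrfs1, the Rieske iron-sulfur protein, was highest on day 1 (10.83) and had a slope of −0.11 ± 0.045 (SE, limma adjusted p = 0.0857). Of the small accessory subunits, Uqcr (levels 10.09, 9.95, 9.53, 9.50, 9.40 and 9.45) fell by 0.14 ± 0.041 (SE, limma adjusted p = 0.0272), a call lost after length correction (0.582) and without day 0 (0.141), day 1 (0.0693) or day 4 (0.0885). Uqcrh, the hinge protein next to cytochrome c1, stayed between 9.75 and 10.06, and Uqcrq had its lowest level, 9.72, on day 2, between 10.89 at the start and 10.45 on day 5.

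Complex IV, cytochrome c oxidase, had the median day 5 level nearest to day 0, −0.19 log2 units against −0.30 in complex I, −0.40 in II, −0.37 in III and −0.51 in V. These differences between complexes were not tested. Of its 12 nuclear genes kept, 2 fell and 0 rose by limma (0 also at an unadjusted p under 0.05), and the median slope was −0.027. After length correction 1 fell and 4 rose, and the median was 0.079. Cox5a, a subunit that joins early in oxidase assembly, had the steepest slope of the complex, with levels of 11.75, 11.54, 11.15, 11.00, 10.63 and 10.65. It was lower on each day up to day 4, fell by 0.24 ± 0.034 per day (SE, limma adjusted p = 0.00330) and ended 2.15-fold below day 0. Its call also held after length correction (adjusted p = 0.00580). Cox5b, a zinc-binding subunit, had levels of 11.34, 11.34, 11.11, 11.26, 11.14 and 11.03 and a slope of −0.058 ± 0.031 (SE, limma adjusted p = 0.150). Cox7b, a small membrane subunit, fell by 0.15 ± 0.041 (SE, limma adjusted p = 0.0201), but not after length correction (0.0782) nor without day 0 (0.135), day 4 (0.0670) or day 5 (0.0777). Cox6a1, Cox6b1, Cox6c and Cox7b2 rose after length correction, by 0.075, 0.12, 0.11 and 0.19 per day, and did not pass the test on the deposited values.

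Cox4i1, the main form of oxidase subunit 4, and Cox4nb lie head to head on chromosome 8 in mm9, with the deposited positions of their facing ends 177 apart. Cox4nb (123177813 to 123192012, minus strand) is named as the neighbor of Cox4 and encodes a subunit of the ER membrane protein complex, not of the oxidase. Its levels were 11.75, 11.20, 10.68, 10.41, 10.07 and 10.08, and those of Cox4i1 (123192189 to 123198109, plus strand) were 12.81, 12.37, 12.44, 12.49, 12.39 and 12.49. Cox4nb was lower on each day up to day 4, while Cox4i1 was 0.44 lower on day 1 than on day 0 and then stayed within 0.12 log2 units. Cox4nb fell by 0.34 ± 0.047 per day (SE, limma adjusted p = 0.00313; 0.00338 after length correction), and the slope of Cox4i1 was −0.042 ± 0.038 (adjusted p = 0.373). The difference between these neighbors was not tested.

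Complex V, ATP synthase, had 6 of 15 genes falling and 0 rising by limma (0 also at an unadjusted p under 0.05), and all 15 slopes were negative, with a median of −0.080. After length correction 3 fell, 0 rose and the median was −0.011. In the F1 head, where ATP is made, 3 of 5 genes fell. Atp5b, the catalytic beta subunit, had levels of 15.14, 15.11, 14.75, 14.63, 14.39 and 14.38 and fell by 0.18 ± 0.027 per day (SE, limma adjusted p = 0.00403). Atp5a1, the alpha subunit that alternates with beta in the head, had levels of 14.55, 14.37, 14.03, 13.79, 13.66 and 13.69 and fell by 0.19 ± 0.032 (SE, limma adjusted p = 0.00476). Both were lower on days 2 to 5 than on days 0 and 1, ended 1.70-fold (Atp5b) and 1.81-fold (Atp5a1) below day 0, and also fell after length correction (adjusted p = 0.00355 and 0.00448). Atp5c1, the gamma subunit that forms the central shaft, had levels of 11.87, 11.73, 11.65, 11.55, 11.63 and 11.59 and a slope of −0.051 ± 0.029 (SE, limma adjusted p = 0.181). Atp5e, the small epsilon subunit, fell by 0.14 ± 0.037 (SE, limma adjusted p = 0.0202), but not after length correction (0.692) nor without day 0 (0.0610), day 1 (0.0506) or day 4 (0.0747). In the membrane part and the stalk 3 of 10 genes fell: Atp5g1, Atp5g3 and Atp5o, the last lost after length correction (0.354), after quantile normalization (0.0517) and without any of days 0, 1, 3, 4 or 5 (adjusted p 0.0593 to 0.215). Atp5h, subunit d of the stalk, had the slope nearest to 0 of complex V, −0.036 ± 0.044 (limma adjusted p = 0.502).

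Atp5g1, Atp5g2 and Atp5g3 encode the same mature protein, subunit c of the rotating membrane ring, behind different import sequences. Their promoters are shown because Atp5g1 had the steepest slope of the 77 genes and these are its counterparts; the ratios between the 3 genes are tested after the sequences. Each line is the 150 bases before the RefSeq start, in GRCm38.p6, 5′ to 3′ on the minus strand on which all 3 genes lie. Capitals mark a searched motif: in Atp5g2 the palindrome for NRF1, which is GCGCA followed by its reverse complement, starting 42 bases before the start, and TCAAGGTCA for estrogen-related receptors (ERR) in Atp5g3, read on the other strand, starting 52 bases before it. Atp5g1 has no capitals because none of the 4 motifs searched is in it.
Atp5g1 (chr11:96075632-96075781): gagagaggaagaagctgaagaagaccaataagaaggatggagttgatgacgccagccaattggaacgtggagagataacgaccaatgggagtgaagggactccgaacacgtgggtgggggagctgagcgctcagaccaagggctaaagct
Atp5g2 (chr15:102671048-102671197): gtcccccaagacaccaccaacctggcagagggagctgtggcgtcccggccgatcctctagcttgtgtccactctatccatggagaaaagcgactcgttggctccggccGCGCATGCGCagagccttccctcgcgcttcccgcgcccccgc
Atp5g3 (chr2:73911327-73911476): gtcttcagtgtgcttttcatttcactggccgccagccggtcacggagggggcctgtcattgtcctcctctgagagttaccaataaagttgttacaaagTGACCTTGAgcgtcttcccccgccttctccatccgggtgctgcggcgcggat

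Atp5g1 had the steepest slope of all 77 genes. Its levels were 11.34, 11.22, 10.07, 10.06, 9.75 and 9.70, with 1345, 1385, 611, 534, 783 and 698 reads behind them. Days 0 and 1 were close, and the level then dropped by 1.15 between day 1 and day 2 and was lower again on days 4 and 5. It fell by 0.36 ± 0.066 per day (SE, limma adjusted p = 0.00622; 0.00817 after length correction), and day 5 differed from day 0 by −1.63 (95% counting interval −1.76 to −1.50), which is 3.10-fold lower. The transcript of 810 nt lies on chromosome 11, 95934106 to 95936945, minus strand (mm9). Atp5g3 had levels of 12.24, 12.15, 11.92, 11.74, 11.59 and 11.60 and fell by 0.14 ± 0.028 (SE, limma adjusted p = 0.00772), a call lost after length correction (0.0833). Atp5g2 had levels of 11.17, 11.15, 11.07, 10.76, 10.88 and 10.92 and a slope of −0.068 ± 0.035 (SE) that did not pass (limma adjusted p = 0.139). It was lowest on day 3 and ended within 0.25 of day 0.

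Per length, which allows levels of different genes to be set side by side, Atp5g1 made up 23.2%, 22.5%, 12.9%, 14.6%, 12.6% and 12.1% of the subunit c reads over days 0 to 5 in turn, lower on each of days 2 to 5 than on the first 2. Atp5g2 went from 25.6% on day 0 to 34.7% on day 5 and Atp5g3 from 51.3% to 53.2%. The summed subunit c level per kilobase was 13.75 on day 0 and 13.06 on day 5 (log2). Within each library the scaling factor cancels in a ratio of 2 genes, so the log2 ratios were tested by exact permutation over all 720 orders of the 6 days (two-sided, smallest possible p 0.00278). The 5 planned pairs of genes for 1 subunit that had both genes in the table were tested, and p was adjusted over these 5 pairs. The ratio of Atp5g1 to Atp5g2 had a slope of −0.29 per day (exact permutation p = 0.0222, adjusted 0.0625), that of Atp5g1 to Atp5g3 −0.22 (p = 0.0389, adjusted 0.0648) and that of Atp5g2 to Atp5g3 0.076 (p = 0.025, adjusted 0.0625). None of the 5 pairs passed the adjustment. With any 1 day left out the 3 slopes kept their signs, with −0.34 to −0.26 for Atp5g1 to Atp5g2.

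**Figure D3:**
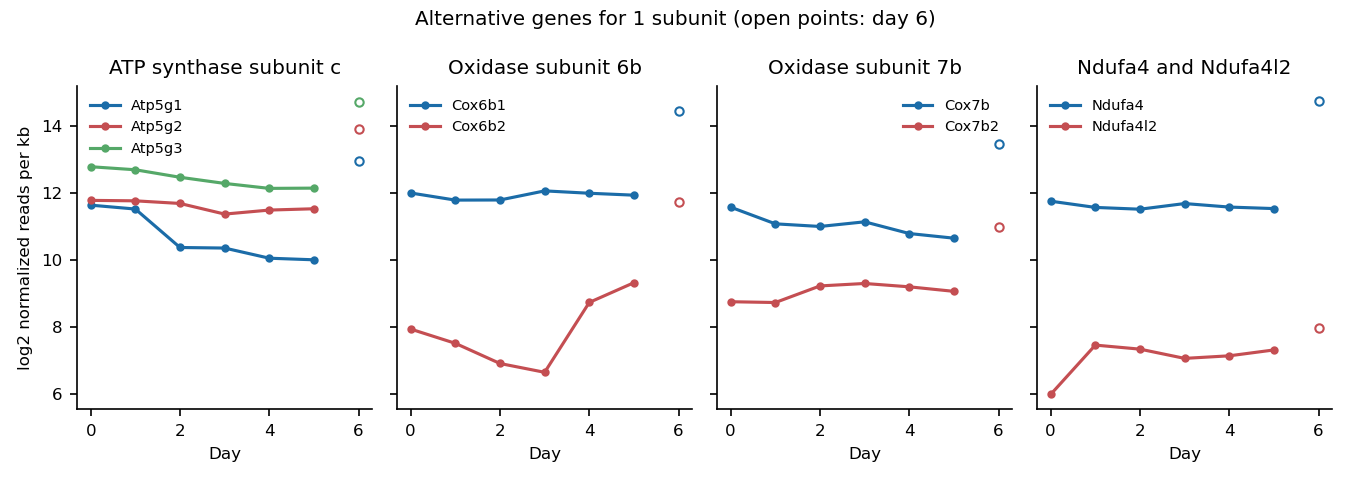
Log2 normalized reads per kilobase (y axis) on days 0 to 6 (x axis) for genes that encode alternative forms of 1 subunit, 1 library per day, with day 6 as open points. Atp5g1 starts at 11.64 next to Atp5g2 at 11.78 and ends day 5 at 10.01 against 11.53.

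Several oxidase subunits have a second gene with a narrower known tissue range. Cox6b2, the form of subunit 6b known from testis, had 71, 59, 38, 28, 215 and 298 reads on days 0 to 5, or levels of 7.09, 6.67, 6.07, 5.80, 7.89 and 8.48. It was lowest on day 3 and highest on day 5, and it did not pass the filter on low values. Without the filter its slope was 0.29 ± 0.19 (SE, limma adjusted p = 0.233). Per length it amounted to 0.0599 of Cox6b1 on day 0, 0.0235 on day 3 and 0.164 on day 5, and the slope of the ratio did not pass (0.28, exact permutation p = 0.317, adjusted 0.317). That slope was 0.047 without day 5 and 0.49 without day 0. Cox6b1, the common form, stayed between 10.82 and 11.09. The promoters of this pair are given because the courses of the 2 genes look unlike after day 3, again as the 150 bases before the RefSeq start in GRCm38.p6 on the minus strand, and none of the 4 motifs is in either.
Cox6b1 (chr7:30626115-30626264): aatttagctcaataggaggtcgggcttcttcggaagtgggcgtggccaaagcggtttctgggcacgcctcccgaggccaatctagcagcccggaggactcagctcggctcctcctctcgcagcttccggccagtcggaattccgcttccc
Cox6b2 (chr7:4753095-4753244): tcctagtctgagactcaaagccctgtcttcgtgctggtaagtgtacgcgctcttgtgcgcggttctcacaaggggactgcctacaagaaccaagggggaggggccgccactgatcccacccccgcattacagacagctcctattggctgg

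Cox7b2 had levels of 7.88, 7.86, 8.36, 8.43, 8.33 and 8.19, and its ratio to Cox7b per length went from 0.141 on day 0 to 0.333 on day 5. That pair was picked after its values were seen and is given with no test. Ndufa4l2, known as a target of hypoxia-inducible factor, had 32, 99, 89, 65, 124 and 129 reads. It stood 1.47 log2 units higher on day 1 than on day 0 (95% counting interval 0.88 to 2.09) and then stayed between 7.02 and 7.41. Its ratio to Ndufa4, now counted as an oxidase subunit, had a slope of 0.18 (exact permutation p = 0.308, adjusted 0.317) that turned to −0.048 without day 0. Ndufa4 itself stayed between 10.51 and 10.75.

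Of the 8 genes outside the 5 complexes, 3 passed the filter, 2 of which fell and 1 rose, also after length correction. Besides Cox4nb, Atp5sl, known from complex I assembly despite its name, had levels of 9.42, 8.95, 8.68, 8.39, 8.30 and 8.25 and fell by 0.23 ± 0.044 per day (SE, limma adjusted p = 0.00669; 0.00705 after length correction). Cox7a2l, which helps to join complexes III and IV into supercomplexes, had levels of 9.67, 9.62, 9.80, 9.76, 10.02 and 10.21 and rose by 0.11 ± 0.036 (SE, limma adjusted p = 0.0389; 0.0106 after length correction). This call was lost after median-centring (0.112), after quantile normalization (0.123) and without day 0 (0.0595), day 1 (0.0884), day 2 (0.0501), day 4 (0.114) or day 5 (0.194). The other 5 did not pass the filter. Without it, Atp5s went from 26 reads on day 0 to 94 on day 5 and rose by 0.30 ± 0.080 per day (SE, limma adjusted p = 0.0219), and the complex I assembly factors Ndufaf2 and Ndufaf4 fell (−0.17 ± 0.053 and −0.16 ± 0.053, adjusted p = 0.0365 and 0.0439). Ndufaf1 and Ndufaf3 had slopes of 0.046 ± 0.052 and −0.13 ± 0.073 (adjusted p = 0.487 and 0.176).

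Courses that bend were tested with a term in day squared. None of the 77 genes passed limma's adjusted test (0.0414% of all genes kept did), and 8 of 77 had an unadjusted p under 0.05. The curved term was above 0, which is a course that flattens or turns up, in 69 of 77 genes, where it was above 0 in 47.2% of all genes kept. By complex this was 32 of 36 genes of complex I, 3 of 4 of complex II, 7 of 7 of complex III, 10 of 12 of complex IV and 14 of 15 of complex V. The curved term was fitted to the deposited values only, with no length correction, and these genes share the same libraries.

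By mean level per length over days 0 to 5, 75 of 84 genes lay above the median of all genes kept, 8.42 (log2 normalized reads per kilobase). The filter used levels not divided by length, so a short transcript that passed it starts from a higher level per length. The count of 75 was therefore partly set by filter and length, and is no measure of high expression by itself. Atp5b (13.82) had the highest level, then Cox4i1 (13.05), Cox6a1 (12.81), Atp5a1 (12.73) and Atp5g3 (12.42). The medians of the genes kept were 10.00 in complex I, 10.34 in complex II, 10.77 in complex III, 11.77 in complex IV and 11.60 in complex V. The lowest 2 genes were Atp5s (5.76) and the assembly factor Ndufaf4 (6.24). Atp5b and Atp5a1, whose proteins are needed in equal number in the enzyme, differed by over 1 log2 unit in reads per kilobase.

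**Figure D4:**
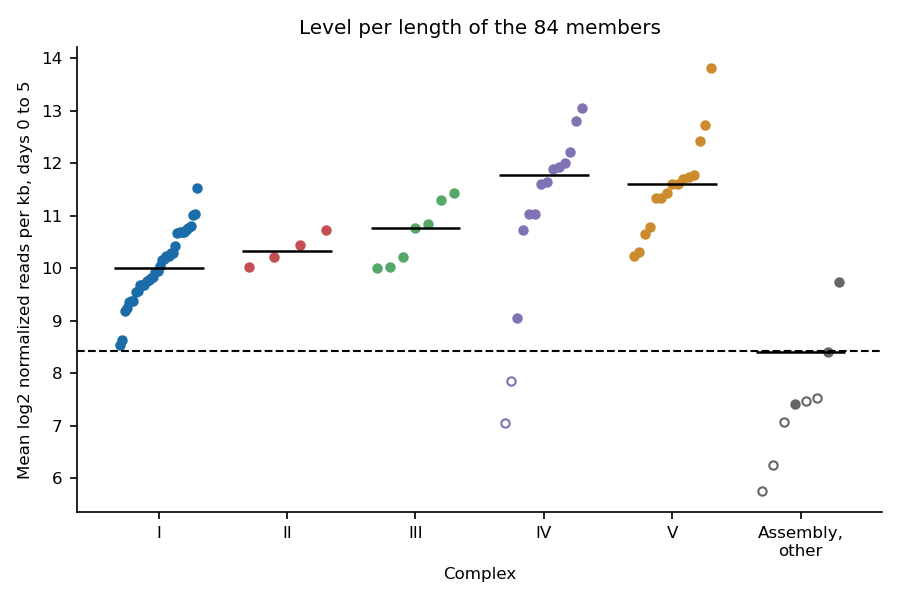
Mean log2 normalized reads per kilobase over days 0 to 5 (y axis) of the 84 genes by complex (x axis). Filled points passed the filter, open points did not, black bars are medians of the genes kept in a group, and the dashed line is the median of all genes kept, 8.42. The bars of complexes IV (11.77) and V (11.60) lie above that of complex I (10.00).

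Motifs of factors known to act on respiratory genes were searched on both strands of RefSeq promoter windows of 300 bases (250 before and 50 after the start, GRCm38.p6). Of the 84 genes 71 matched by gene identifier, with 77 windows, and the table held 32851 windows in all. The NRF1 palindrome was in 6 of 77 windows (7.79%) against 0.971% of all windows, the ETS motif CCGGAAGT bound by GABP in 5 (6.49%) against 3.89%, the YY1 motif AAGATGGC in 12 (15.6%) against 2.75%, and the ERR motif TCAAGGTCA in 2 (2.60%) against 0.423%. Matches of different motifs did not overlap. YY1 matches were in Ndufs6, Ndufs7, Ndufa9, Ndufb8 and Atp5sl among falling genes, where 2 overlapping windows of Atp5sl hold the same site, and an NRF1 match in Uqcrc1 lies 31 bases after the start. Of the windows of falling genes 6 of 21 held YY1, with both Atp5sl windows counted, and 1 of 21 NRF1, and of those of genes not called 6 of 48 and 4 of 48. A match describes letters only. The window of Uqcr is shown as an example of an ETS match in a falling gene, with CCGGAAGT in capitals from 66 bases before the start (minus strand).
Uqcr (chr10:80406822-80406971): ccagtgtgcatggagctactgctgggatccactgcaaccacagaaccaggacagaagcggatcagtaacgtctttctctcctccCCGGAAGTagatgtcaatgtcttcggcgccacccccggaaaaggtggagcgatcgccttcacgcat

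Other lists of the pathway, chosen like the gene set with earlier results of these data known, were read against the same background of 26.8% falling and 25.7% rising. Of 20 genes of mitochondrial protein import kept, 12 fell and 0 rose (11 and 0 after length correction). Tomm40, the channel of the outer membrane, fell by 0.49 ± 0.081 (SE, limma adjusted p = 0.00475), and Tomm5 (−0.35), Timm8a1 (−0.35) and the chaperonin gene Hspe1 (−0.33) fell too. Tomm5 was lost without day 0 (adjusted p = 0.143) or day 4 (0.0690). Of 6 genes of mitochondrial genome expression 5 fell and 0 rose, before and after length correction: the tRNA processing enzyme Elac2 (−0.42), the RNA polymerase Polrmt (−0.29), the packaging factor Tfam (−0.24), the helicase Peo1 (−0.19) and Ssbp1 (−0.18). The genome they serve encodes the remaining subunits of complexes I, III, IV and V. With single days left out, 7 (without day 0) to 13 import genes and 4 to 5 genes of genome expression fell. Peo1 was lost without day 0 (adjusted p = 0.0566), and Ssbp1 without day 0 (0.0697) or day 4 (0.0515).

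Of 11 nuclear regulators kept, 6 fell and 1 rose, before and after length correction. Myc (−0.67), the coactivator Pprc1 (−0.35), Hcfc1 (−0.28), Nrf1 (−0.21), the ETS factor gene Gabpa (−0.20) and Gabpb2 (−0.16) fell, and Nfe2l2, a regulator of the response to oxidants, rose (0.47, limma adjusted p = 0.00192). The ERR genes Esrrb and Esrrg did not pass the filter and are not in these counts. Esrrb had a level of 13.42 on day 0 and 5.16 on day 5 (5687 and 30 reads). Esrrg had 2.53 and 7.24 (3 and 126 reads). Among 12 mobile carriers and coenzyme Q genes 5 fell and 1 rose, and after length correction 5 fell and 3 rose (Etfdh, Coq2 and Etfa). Cyc1, cytochrome c1 of complex III, had levels of 12.52, 12.52, 11.69, 11.53, 11.03 and 11.11 and fell by 0.33 ± 0.050 (SE, limma adjusted p = 0.00370), and cytochrome c, Cycs, was highest on day 1 and fell by 0.25 ± 0.055 (adjusted p = 0.0116). Gpd2 (−0.37), Dhodh (−0.29) and Coq7 (−0.17) fell, and Etfdh, which passes electrons from fatty acid oxidation to coenzyme Q, rose (0.18). With single days left out, 5 regulators fell and 1 rose each time, and 4 to 5 of the carrier genes fell. Gabpa was lost without day 0 (adjusted p = 0.0524), Dhodh without day 0 (0.101) or day 4 (0.0542), and Etfdh without day 0 (0.151), day 1 (0.0523) or day 4 (0.0690). The call of Gabpb2 was lost without any 1 of days 1 to 5 (limma adjusted p 0.0528 to 0.196).

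Of the 7 genes for exchange of ATP and ADP and for uncoupling 2 fell: Slc25a5, an ADP/ATP carrier of the inner membrane, by 0.40 ± 0.039 per day (SE, limma adjusted p = 0.00217), and the outer membrane channel gene Vdac1 (−0.15). Slc25a4, another ADP/ATP carrier, had levels of 11.98, 12.59, 12.10, 12.59, 12.56 and 12.71 and a slope of 0.12 that did not pass (limma adjusted p = 0.0947), but it rose after length correction (adjusted p = 0.0296), when 2 of the 7 fell and 1 rose. Of the assembly lists, 3 of 6 genes on the complex I list outside the symbols searched fell (Ecsit −0.32, Dnajc11 −0.23, Acad9 −0.14). A role of each listed gene in assembly was not checked here. Of the oxidase factors 3 of 5 fell (Cox17 −0.19, Lrpprc −0.16, Sco1 −0.14). Cox17 did not pass after length correction (adjusted p = 0.283). None of 4 factors for complexes II and III and none of 6 for ATP synthase passed limma's test, though 3 of the 6 rose after length correction. Among 10 targets of hypoxia-inducible factor Pdk1 (−0.56) and Lonp1 (−0.17) fell and Ddit4 (0.45), Bnip3 (0.44), Egln1 (0.38) and Vegfa (0.38) rose. Without day 0 only 1 gene of the complex I list (Ecsit), 1 of the oxidase factors (Cox17) and 1 of the exchange genes (Slc25a5) fell, and 0 of the hypoxia targets fell and 1 (Ddit4) rose. Without day 4, 0 of the oxidase factors fell. Pdk1 was also lost without day 1 (adjusted p = 0.0978), day 3 (0.0547) or day 4 (0.0691), and Vegfa without day 3 (0.0524), day 4 (0.0713) or day 5 (0.0778). Vdac1 was also lost without day 1 (0.0653), day 3 (0.0623) or day 4 (0.0964), Acad9 without day 1 (0.0637) or day 4 (0.0856), Lrpprc without day 1 (0.0613), and Cox17 and Sco1 without day 5 (0.0987 and 0.0666).

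Day 6 is given apart because its values depended on transcript length. All 77 genes stood higher on day 6 than on day 5, with a median difference of 2.59 log2 units, and 72 were at least 2-fold higher, where 18.6% of all genes kept were (51.7% were at least 2-fold lower). The median over all genes kept was −1.11. The filter mean includes day 6, so a gene high on day 6 could be kept through the value compared here. Over days 0 to 5 alone the means of Ndufa5, Ndufs5 and Cox7b2 lay below the cut of 8.40. Spearman's rho of the difference against length was −0.70 over the 77 genes and −0.78 over all genes kept. Sdha, at 2874 nt, differed by 0.019, and Ndufa5, at 554 nt, by 3.48. Atp5g1 stood at 12.67 on day 6, Atp5b at 15.43 and Cox5a at 13.03. After length correction the median of the 77 genes was 0.20, with 48 of 77 higher, against 0.059 over all genes kept. With day 6 in the fit, so 7 libraries, 0 of the 77 genes fell and 0 rose by limma (3.78% and 1.6% of all genes kept; 1 falling and 4 rising at an unadjusted p under 0.05). The ratio of Atp5g1 to Atp5g2 per length, in which the library factor cancels, was 0.523, above the 0.348 of day 5 and below the 0.906 of day 0. The transcripts differ in length (810 and 652 nt), and the dependence of day 6 on length was not taken out of this ratio.

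**Figure D5:**
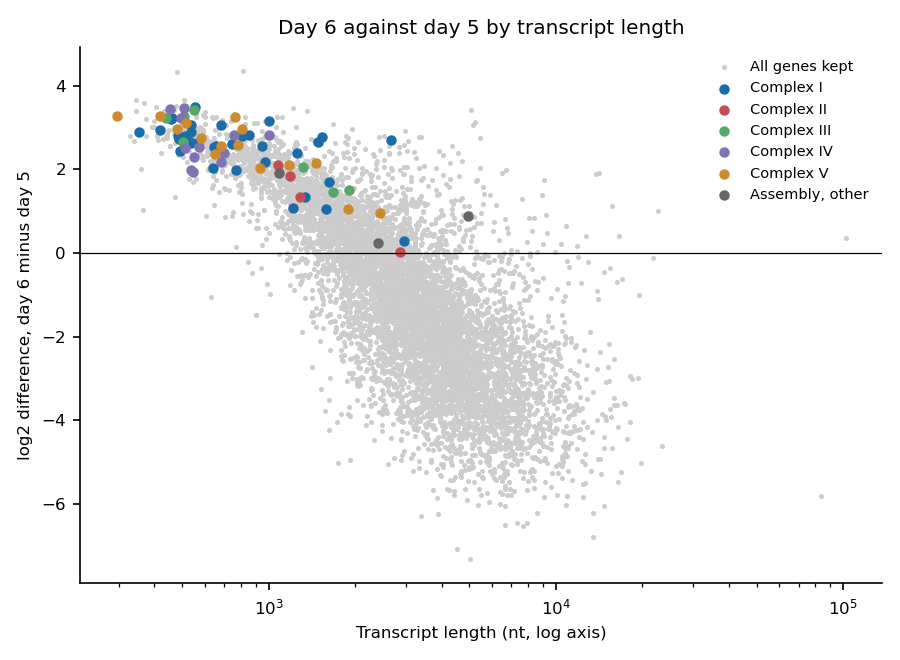
Log2 difference of day 6 minus day 5 (y axis) against transcript length in nt (x axis, log scale) for all genes kept (grey) and the 77 respiratory genes kept (colored by complex). All 77 lie above 0, from 0.019 for Sdha to 3.48 for Ndufa5, and most are shorter than the median of all genes kept, with Cox4nb (4938 nt) the longest. The filter that kept these genes used a mean that includes day 6.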

How the data were processed

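RNA sequencing of 7 cultures of CCE cells, 1 per day, was analysed from the deposited table. Per the labels' protocols, stranded libraries were prepared from DNase-treated total RNA after removal of ribosomal RNA. The submitters' processing notes name BWA 0.7.3 and the build mm9. The sources used here do not name the counter, its strand setting or the annotation, so genes that overlap or share sequence with copies are uncertain. The deposited values are on a log2 scale, per the file headers and values: 100% of values of up to 1000 reads were whole reads within 0.05 after 1 factor per library was removed. That factor set the lowest value of each library to 1 read. Lengths, positions (mm9) and symbols come from the table. Positions are written as deposited, and whether starts count from 0 or from 1 was not settled.

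For each symbol the transcript with the highest mean was used, and 7242 symbols above the 40th percentile of the mean were kept. Slopes over days 0 to 5 came from limma 3.58.1 (R 4.3.3, empirical Bayes with mean trend, 4 residual degrees of freedom, two-sided), with Benjamini-Hochberg adjustment over all 7242 genes. With 1 library per day p-values measure scatter about a line and not culture-to-culture spread. Tested on simulated data for this slope (7242 genes, 200 changed), 41.8%, 80.6% and 93.9% of genes with slopes of 0.25, 0.5 and 1 were called in either direction, with 8 false calls. The simulated noise was independent between genes, and in the data far more genes were called (26.8% falling, 25.7% rising). These rates therefore need not hold for the real fit. Isoform ratios were tested by exact permutation with SciPy 1.17.1. Of 9 pairs planned, 5 had both genes in the table; the others were not analysed here. Intervals are exact binomial (Clopper-Pearson, 95%) and hold counting error alone, because these reads carry no molecular identifiers and can be copies of 1 molecule.

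The genes named were, in each complex, those of highest and lowest slope, all Sdh genes, the pair genes, the core and catalytic subunits, the 4 largest day 5 differences each way and, of other lists, up to 4 called genes of largest slope. Others named were chosen after their values were seen. The values of 1 core subunit are not reported here, though it is in the counts. The genes and lists were chosen with earlier results of these data known. Alternatives were median-centring, quantile normalization, length correction, 2 other filters, 2 other ways to take 1 value per symbol, no mean trend, all 7 libraries, and each day left out in turn. Promoters are from RefSeq (GRCm38.p6).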

Additional observations from a re-analysis of the deposited data

How the results depend on the processing

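The 9 genes Atp5a1, Atp5b, Atp5g1, Cox4nb, Cox5a, Ndufb10, Ndufs6, Ndufv1 and Uqcrc1 kept their falling call in all 14 alternatives of the fit over days 0 to 5, out of 25 genes called, and Atp5sl in the 13 it could enter. After length correction 14 respiratory genes fell and 11 rose, 5 instead of 8 were at least 2-fold lower on day 5, and the median slope was 0.0022 over all, 0.011 in complex I, −0.021 in III, 0.079 in IV and −0.011 in V. Median-centring gave 31 falling and 0 rising respiratory genes (1622 rising and 2348 falling of all), and quantile normalization 28 and 0 (1566 rising and 2098 falling of all; complex III median −0.12). Of all genes, 3132 rose and 2662 fell with no filter and 1191 and 1490 with the 60th percentile filter, where other numbers of genes were tested. With all 7 libraries 116 of all genes rose and 274 fell, 0 and 0 respiratory genes did, and the medians were 0.24 over all, 0.26 in complex I, 0.12 in II, 0.24 in III, 0.23 in IV and 0.19 in V. Slopes that turned positive included those of Atp5g1 (0.023), Atp5g3 (0.16), Cox5a (0.055), Ndufs6 (0.087) and Ndufs7 (0.079). They were not limited to these, and those of Atp5e (0.24) and Atp5o (0.19) also did. The cause of these changes was not tested.

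With each of days 0 to 5 left out in turn, 1038 to 2005 of all genes rose and 1240 to 1960 fell, and 0 to 1 respiratory genes rose and 11 (without day 0) to 23 fell. The median slope ran from −0.13 to −0.068 in complex III, from −0.050 to 0.0095 (without day 0) in IV and from −0.12 to −0.067 in V, and the slope of the ratio of Ndufa4l2 to Ndufa4 from −0.048 to 0.27. No paired analysis was possible because each day had 1 library. Depth limits mainly Cox6b2, Ndufa4l2 and Atp5s, with as few as 26 reads in a library.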
